A study of Mus musculus with 29 samples.

Results

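The 10 genes described here encode the enzymes of polyamine metabolism and the proteins that control the first of them: Odc1, Amd1, Srm, Sms, Sat1, Oaz1, Oaz2, Azin1, Smox and Paox. They were chosen by name, and a probe of the Illumina MouseRef-8 v2.0 BeadChip was taken as theirs where it was annotated to that symbol. Of the 10 genes, 8 had a named probe, and 7 of these were among the 10768 genes tested. No probe is named here for Amd1 or Paox. The 1 probe of Sms was not detected on any of the 29 arrays, with log2 signals of 7.57 to 7.97, so its level was not measured. A probe annotated to Amd2, a near-identical copy of Amd1 that carries Amd1 among its RefSeq synonyms, was kept as a related gene, since it may read either transcript.

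Gene expression was measured in prostates of 29 mice, 1 array per mouse. The 3 OPT-tm prostates were those of OPN-/-TRAMP mice aged 18 wks that had a palpable tumor, which the study classed as neuroendocrine (NE), and the 4 T30 prostates from 30 wks old TRAMP mice, taken by the study as adenocarcinoma (ADC). The prostates with no palpable tumor were 13 of 18 wks old OPN-/-TRAMP mice (OPT18), 5 of 15 wks old OPN-/-TRAMP mice (OPT15) and 4 of 18 wks old TRAMP mice (T18). All 29 mice carried the TRAMP transgene, in which the rat probasin promoter, regulated by androgens, drives SV40 T antigen in prostate epithelium. OPN-/- mice also carry a germline deletion of Spp1, the gene of osteopontin. No probe is named here for Spp1, so whether its transcript was missing could not be looked at. Of the OPN-/-TRAMP prostates with no palpable tumor, 4 OPT18 and 1 OPT15 were labelled Ineuntes, and 9 OPT18 and 4 OPT15 were labelled Reliquia. By number, age and genotype these match the classes that the study called Early-NE and Early-ADC, and it placed the 4 T18 prostates with the second. The word tumor-free is used below only to mean that no tumor was palpable. Histology in the study found lesions in prostates of both genotypes from 18 wks on. The study also proposes that the Early-NE mice probably had an NE tumor already forming. Values are log2 signals after quantile normalization, and a gene is said to have passed the test at a Benjamini-Hochberg adjusted p under 0.05 in limma, over all 10768 genes.

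Polyamines (putrescine, spermidine and spermine) are small organic cations that bind nucleic acids and are needed for cell growth. The prostate is known for making and secreting them in large amounts. Ornithine decarboxylase (Odc1) makes putrescine from ornithine. Spermidine synthase (Srm) and spermine synthase (Sms) then add aminopropyl groups that come from S-adenosylmethionine through its decarboxylase (Amd1). Spermidine/spermine acetyltransferase (Sat1) acetylates the higher polyamines for export or oxidation. Spermine oxidase (Smox) turns spermine back into spermidine, and Paox oxidizes the acetylated forms. Antizymes (Oaz1, Oaz2) bind Odc1 protein and send it to the proteasome, and the antizyme inhibitor Azin1 holds antizymes away from it. Odc1, Sat1 and the antizymes are controlled to a large extent after transcription, which arrays do not measure.

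Promoter windows of 300 bases, from 250 before to 50 after the RefSeq start in build GRCm38.p6, were found for 8 of the 10 genes. Those of Sat1, Smox, Odc1 and Oaz2 are shown because these 4 genes passed the test in at least 1 tumor comparison. Srm and Azin1 have no entry in the table used. Capitals mark the GC box (GGGCGG on either strand), the only one of 3 motifs searched that these 4 windows hold.
Sat1, chrX:155216400-155216699, minus strand: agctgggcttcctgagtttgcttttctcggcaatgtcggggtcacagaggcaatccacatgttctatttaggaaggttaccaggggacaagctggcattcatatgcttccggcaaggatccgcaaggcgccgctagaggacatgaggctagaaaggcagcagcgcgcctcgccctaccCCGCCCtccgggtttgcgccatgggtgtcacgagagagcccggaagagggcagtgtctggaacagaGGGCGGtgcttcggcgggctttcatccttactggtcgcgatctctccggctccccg
Smox, chr2:131491612-131491911, plus strand: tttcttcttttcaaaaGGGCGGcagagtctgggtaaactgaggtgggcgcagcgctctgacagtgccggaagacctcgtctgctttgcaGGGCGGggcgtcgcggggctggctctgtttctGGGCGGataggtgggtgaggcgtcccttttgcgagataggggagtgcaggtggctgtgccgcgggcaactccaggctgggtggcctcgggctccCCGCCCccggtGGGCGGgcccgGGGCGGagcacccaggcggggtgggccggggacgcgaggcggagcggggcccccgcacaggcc
Odc1, chr12:17544623-17544922, plus strand: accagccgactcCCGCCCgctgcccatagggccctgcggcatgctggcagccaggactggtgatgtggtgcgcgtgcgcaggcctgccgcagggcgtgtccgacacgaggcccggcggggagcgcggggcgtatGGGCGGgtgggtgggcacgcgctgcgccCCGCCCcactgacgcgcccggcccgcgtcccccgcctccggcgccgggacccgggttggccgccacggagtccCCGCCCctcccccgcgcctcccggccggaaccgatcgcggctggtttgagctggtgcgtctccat
Oaz2, chr9:65676298-65676597, plus strand: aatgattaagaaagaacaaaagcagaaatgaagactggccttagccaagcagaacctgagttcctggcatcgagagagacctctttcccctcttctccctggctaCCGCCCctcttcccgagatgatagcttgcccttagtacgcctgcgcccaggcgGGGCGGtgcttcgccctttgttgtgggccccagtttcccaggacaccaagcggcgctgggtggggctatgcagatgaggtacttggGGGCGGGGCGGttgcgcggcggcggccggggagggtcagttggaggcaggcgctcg
The GC box was found 2 times for Sat1, 6 times for Smox and 4 times each for Odc1 and Oaz2. It was present in the windows of 7 of the 8 genes and in 35.7% of all 32851 RefSeq windows. The E-box CACGTG was found only upstream of Sms among the 8 genes (7.2% of all windows), and TATAAA, searched on both strands, only upstream of Oaz1 (13.6% of all windows). These are matches of letters, and binding was not measured.

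Between 38.7% and 51.8% of probes were detected per array. The share was 47.1% to 51.8% on chips 1 and 2, but 38.7% to 41.9% on chips 3 and 4. Counts of arrays on which a probe was detected can therefore depend on the chip. OPT-tm had no array on chip 4. Marker lists were read beside the polyamine genes, since the prostates were whole tissue. The mean level of 10 NE markers lay between 12.76 and 13.28 in OPT-tm, between 8.06 and 8.18 in T30 and between 8.71 and 11.62 in tumor-free OPT18. Means of 8 mitosis genes were 13.31 to 13.45 in OPT-tm, 10.87 to 11.69 in T30 and 10.77 to 12.30 in tumor-free OPT18. Means of 11 luminal secretory genes were 11.04 to 11.40 in OPT-tm, 11.93 to 13.04 in T30 and 13.26 to 13.68 in tumor-free OPT18. Means of 8 smooth muscle genes were 9.79 to 9.98 in OPT-tm, 12.92 to 13.43 in T30 and 12.98 to 13.55 in tumor-free OPT18, and means of 10 macrophage genes were 10.37 to 11.14 in OPT-tm, 11.51 to 12.04 in T30 and 10.67 to 11.41 in tumor-free OPT18. Of the 11 luminal genes, 6 were lower in OPT-tm than in T30, 1 was higher and 4 did not pass. Of all genes, 21.7% were lower and 21.4% higher in this comparison. Pbsn, a defining luminal gene, was not detected in the 3 OPT-tm and was detected in 1 of 4 T30. It did not pass between these groups (adjusted p = 0.520 in limma). Seminal vesicle genes averaged 7.998 to 8.53 in OPT-tm and 8.52 to 15.51 in T30, where only the mouse of chip 1 was low. The part of these lists in the results on polyamine genes was not tested, and fewer cells of a type cannot be told apart from less RNA per cell in such samples.

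**Figure D1:**
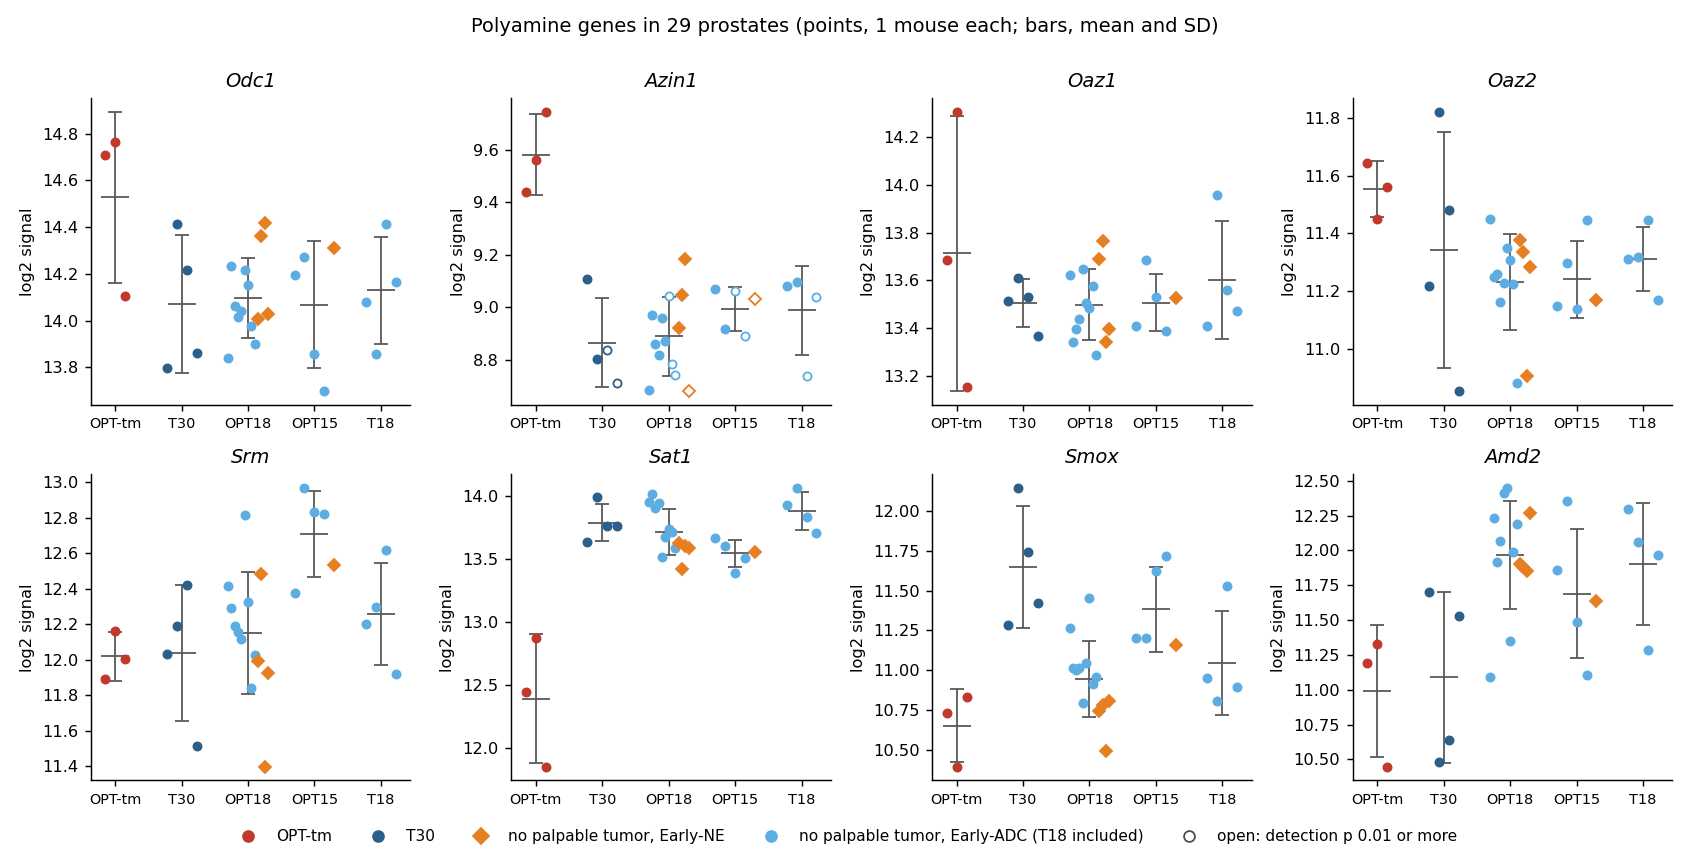
Log2 signal of the 7 measured polyamine genes and Amd2 (y axes, each with its own range) in 5 groups of prostates, 1 point per mouse, with the mean and SD as bars. The 3 OPT-tm prostates sit below all others for Sat1 and above all others for Azin1, and the 4 T30 prostates lie above all 3 OPT-tm for Smox.

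The first comparison asked how NE tumors differed from adenocarcinoma. In OPT-tm, Sat1 and Smox, the entry points of polyamine breakdown, fell relative to T30, and Azin1 rose. Thus 3 of 7 measured genes passed the test, against 43.1% of all genes, and 1 (Sat1) was also at least 2-fold different, against 24.1%. The median log2 fold change of the 7 genes was 0.21, and that of all genes was -0.03. OPT-tm and T30 values did not overlap for 3 of the 7 genes, against 48.9% of all genes. Genotype, age and histotype changed together between these groups and cannot be told apart.

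Sat1, which acetylates spermidine and spermine, had log2 signals of 12.45, 12.87 and 11.85 in the OPT-tm prostates of chips 1, 2 and 3, against 13.64, 13.99, 13.77 and 13.76 in the T30 prostates of chips 1 to 4. The highest OPT-tm value was thus well under the lowest T30 value. Sat1 fell by 1.40 on the log2 scale in OPT-tm (SE 0.24, 2.64-fold lower, adjusted p = 0.00183), and it was lower in OPT-tm on each of the 3 chips that held both groups, by differences of -1.19, -1.12 and -1.91. With chip as a block the value was -1.41 (adjusted p = 0.00920). With array medians set equal in place of quantile normalization it was -1.16 and no longer passed (adjusted p = 0.0718).

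Relative to the 13 OPT18 prostates with no palpable tumor, which share age and genotype with OPT-tm, Sat1 was lower in OPT-tm too. The OPT18 values ran from 13.42 to 14.02 with a median of 13.68, and all 3 OPT-tm values lay below them. Sat1 fell by 1.32 on the log2 scale (SE 0.16, 2.51-fold lower, adjusted p = 8.08e-07), and in each of 3 chips. Across all 29 prostates the range of Sat1 was 2.21 log2 units, the widest of the 7 genes, and its SD stood at percentile 73.9 among all genes. Group means of prostates other than OPT-tm were 13.88 in T18, 13.79 in T30, 13.72 in OPT18 and 13.55 in OPT15, and neighbours in this order differed by less than the SD of the wider-spread of the groups.

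Smox, the spermine oxidase, had 5 probes. The probe used for the gene, detected on all 29 arrays, read 10.73, 10.40 and 10.83 in OPT-tm, against 11.28, 12.14, 11.74 and 11.42 in T30. The groups did not overlap, and T30 was the highest of the 5 groups on average (11.65 ± 0.38, SD, n = 4). Smox fell by 0.99 on the log2 scale in OPT-tm relative to T30 (SE 0.23, 1.99-fold lower, adjusted p = 0.00834), just short of the 2-fold limit. It was lower on each of 3 chips, by differences of -0.55, -1.74 and -0.91. The T30 mouse of chip 2 held the highest Smox value, and without it the value was -0.83 (adjusted p = 0.0101). With array medians set equal it was -0.81 and did not pass (adjusted p = 0.0859).

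The other 4 Smox probes also read lower in OPT-tm than in T30. The next brightest one gave -0.90 (adjusted p = 0.00752) and another -0.73 (adjusted p = 0.0253). The remaining pair, detected on 21 and 16 arrays, gave -0.50 (adjusted p = 0.0791) and -0.47 (adjusted p = 0.119) and did not pass. Relative to tumor-free OPT18, Smox in OPT-tm did not pass the test (-0.29, SE 0.15, 95% CI -0.61 to 0.02, adjusted p = 0.0953), and its probes differed in sign, with values of -0.27, 0.22, -0.21 and 0.04 for the other 4. With chip as a block the value of the main probe was -0.45 and passed (adjusted p = 0.00240). Against the 9 Early-ADC prostates alone it was -0.40. That class was made from these same arrays, so this value is a description and no test. The OPT18 values of 10.50 to 11.45 overlapped those of OPT-tm.

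**Figure D2:**
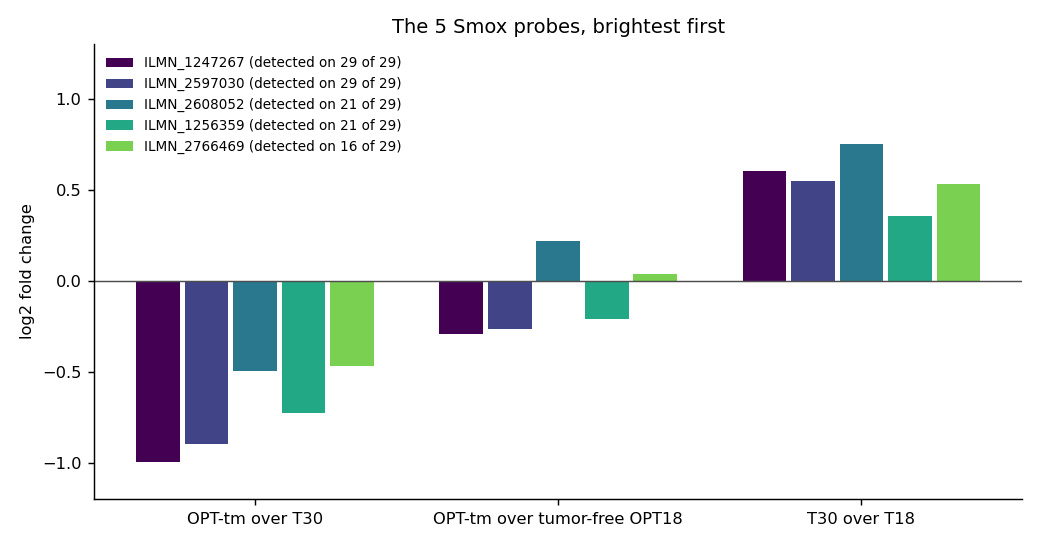
Log2 fold change of each of the 5 Smox probes (bars, brightest first, labelled by probe and by the number of the 29 arrays on which it was detected) in 3 comparisons. All 5 bars are below 0 for OPT-tm over T30 and above 0 for T30 over T18, while for OPT-tm over tumor-free OPT18 they run from -0.29 to 0.22.

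Turning to synthesis, Odc1, the first enzyme of the pathway, read 14.71, 14.77 and 14.11 in OPT-tm, against 13.79, 14.41, 14.22 and 13.86 in T30. The OPT-tm mice of chips 1 and 2 were above every other prostate, and that of chip 3 lay inside the T30 range. The difference from T30 was 0.46 (SE 0.23, 95% CI -0.07 to 0.98), but it fell short of the threshold (adjusted p = 0.140). It passed once the OPT-tm prostate of chip 3 was left out (0.67, adjusted p = 0.0472) and with all 29 arrays in 1 fit (0.46, adjusted p = 0.0323). Relative to tumor-free OPT18 (13.84 to 14.42, median 14.04), Odc1 rose by 0.43 (SE 0.14, 1.35-fold, adjusted p = 0.00954). That call was lost when the OPT-tm prostate of chip 1 (0.34, adjusted p = 0.0768) or that of chip 2 (0.31, adjusted p = 0.0910) was left out, and with array medians set equal (0.40, adjusted p = 0.274). Among the 4 groups other than OPT-tm, Odc1 averaged 14.07 to 14.13, a spread smaller than the SD within any of them.

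Srm, which makes spermidine, read 11.89, 12.16 and 12.00 in OPT-tm, against 12.03, 12.19, 12.42 and 11.52 in T30. The OPT-tm values lay inside the range of T30. The difference was -0.02 from T30 (95% CI -0.52 to 0.48, adjusted p = 0.952) and -0.13 from tumor-free OPT18 (95% CI -0.54 to 0.27, adjusted p = 0.567). Its other 2 probes, both detected on all 29 arrays, gave 0.10 and 0.19 for the first of these comparisons and did not pass either. On the 3 chips that held OPT-tm, Srm was lower in OPT-tm than in T30 on each (-0.14, -0.03 and -0.42) and lower than in OPT18 on each (-0.37, -0.19 and -0.32), but with chip as a block neither comparison passed (-0.19, adjusted p = 0.389, and -0.29, adjusted p = 0.131). For Srm, then, no difference passed the test in tumors.

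The Amd2 probe, the nearest to a reading of S-adenosylmethionine decarboxylase here, read 11.19, 11.32 and 10.45 in OPT-tm, against 11.70, 10.48, 10.64 and 11.53 in T30. The difference between the tumor groups was -0.10 and did not pass (95% CI -0.91 to 0.71, adjusted p = 0.844). Relative to tumor-free OPT18 (11.09 to 12.45, median 11.99), it fell by 0.98 in OPT-tm (SE 0.23, 1.97-fold lower, adjusted p = 0.00119), with some overlap. With chip as a block the value was -0.77 (adjusted p = 0.00358). Since Amd1 and Amd2 transcripts are near-identical, which of the 2 genes this probe reads is uncertain.

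Among the regulators of Odc1 protein, Azin1 differed most. It read 9.44, 9.56 and 9.74 in OPT-tm, against 9.11, 8.80, 8.84 and 8.71 in T30. Its probe was above background in all 3 OPT-tm but in only 2 of the 4 T30, and the groups did not overlap. Detection of this probe followed the chip. On chips 1 and 2 it was detected on every array. On chips 3 and 4 it was detected only in the OPT-tm mouse of chip 3 and an OPT18 mouse of chip 4. Azin1 rose by 0.72 on the log2 scale in OPT-tm relative to T30 (SE 0.16, 1.64-fold, adjusted p = 0.00663) and was higher on each of 3 chips, by 0.33, 0.76 and 0.91. With chip as a block the value was 0.67 (adjusted p = 0.0434). The neqc background correction gave 1.17, with an adjusted p of 0.00520.

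Azin1 also rose relative to tumor-free OPT18 (8.68 to 9.18, median 8.87, detected in 9 of 13), by 0.69 (SE 0.11, 1.62-fold, adjusted p = 1.80e-05), again with no overlap. OPT-tm and OPT18 values did not overlap for 3 of the 7 genes (Sat1, Azin1 and Oaz2), against 43.8% of all genes. All prostates of the other groups lay between 8.68 and 9.18. Their group means of 8.86 to 8.99 differed by less than 1 SD of the T18 group. Over the 29 prostates Azin1 correlated negatively with Sat1 (Pearson r = -0.79), a description of arrays that share chips and groups, in which the 3 OPT-tm hold both extremes.

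Oaz1, the more general of the antizymes, read 13.69, 14.30 and 13.15 in OPT-tm, against 13.51, 13.61, 13.53 and 13.37 in T30, so the OPT-tm mice held both the highest and the lowest value of all 29. The differences were 0.21 from T30 (adjusted p = 0.535) and 0.22 from tumor-free OPT18 (adjusted p = 0.248), and neither passed. Without the OPT-tm mouse of chip 3, the lowest one, the second was 0.50 and passed (adjusted p = 0.00748).

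Oaz2, the second antizyme, read 11.64, 11.45 and 11.56 in OPT-tm, against 11.22, 11.82, 11.48 and 10.86 in T30. The T30 range enclosed OPT-tm, and the difference of 0.21 did not pass (adjusted p = 0.489). Relative to tumor-free OPT18 (10.88 to 11.45, median 11.26), Oaz2 rose by 0.32 (SE 0.11, 1.25-fold, adjusted p = 0.0178). The lowest OPT-tm value and the highest OPT18 value differed only in the third decimal place. The call was lost when the OPT-tm prostate of chip 1 (0.27, adjusted p = 0.0882) or that of chip 3 (0.32, adjusted p = 0.0514) was left out, and with array medians set equal (0.41, adjusted p = 0.154).

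In all, 4 of 7 genes passed between OPT-tm and tumor-free OPT18 (Azin1, Odc1 and Oaz2 higher, Sat1 lower), against 64.5% of all genes, of which 32.2% were higher and 32.3% lower. Only Sat1 was also at least 2-fold different, against 25.8% of all genes. Both counts of the polyamine genes are within 1 gene of what these shares give for 7 genes. OPT-tm values are used in both comparisons, which therefore are not independent.

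**Figure D3:**
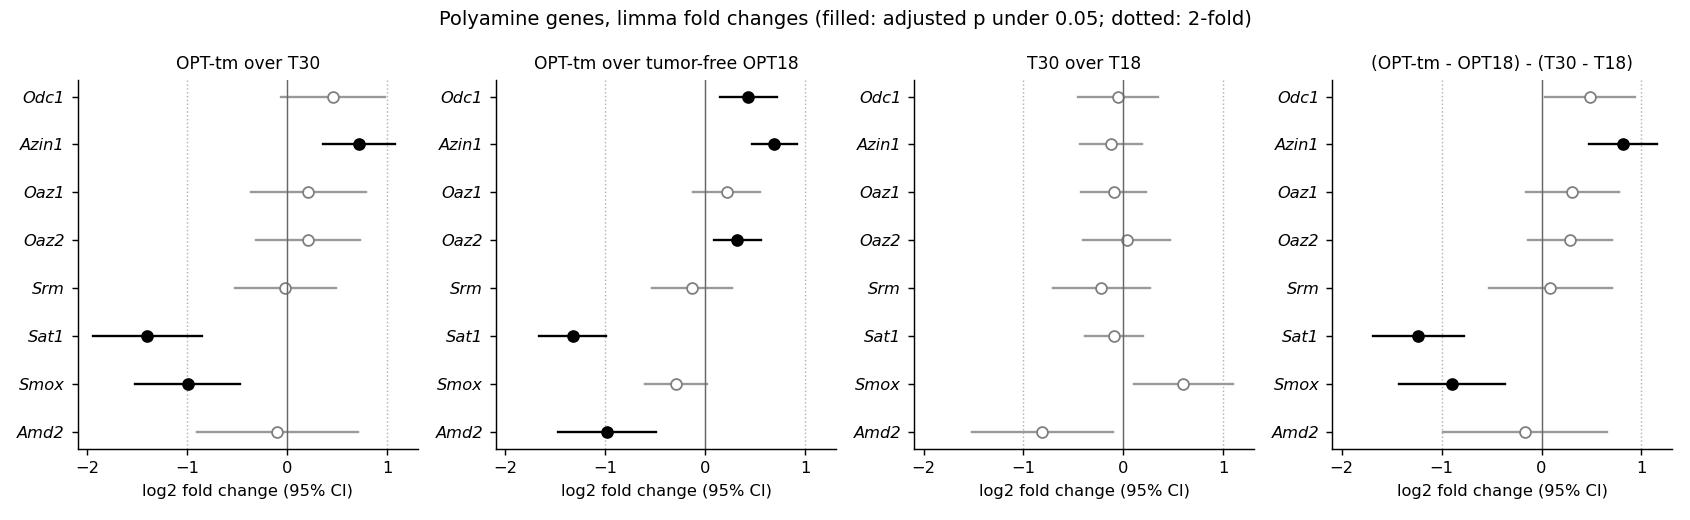
Log2 fold changes with 95% confidence intervals (x axes) of the 7 polyamine genes and Amd2 in 3 comparisons and in the difference between the tumor effects of both genotypes. Filled points passed the test (Sat1, Smox and Azin1 in the first and the last panel), open points did not, and no point is filled for T30 over T18.

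In TRAMP mice, T30 was set against T18, a comparison in which age and tumor change together and cannot be told apart. None of the 7 genes passed, against 2.23% of all genes (17.6% at an unadjusted p under 0.05). Smox had the largest difference, with 11.28, 12.14, 11.74 and 11.42 in T30, against 10.95, 10.81, 11.53 and 10.90 in T18. It was higher in T30 on 4 of 4 chips by 0.60 on average (SE 0.22, 95% CI 0.10 to 1.10), with an unadjusted p of 0.0229 and an adjusted p of 0.204, and 1 T18 value lay above 2 of the T30 values. In a fit of all 29 arrays it passed (adjusted p = 0.0452). The Amd2 probe was lower on 4 of 4 chips (-0.81, SE 0.31, adjusted p = 0.225) and did not pass. For Sat1 the difference was -0.09 with an interval of -0.38 to 0.20, and for Azin1 it was -0.12 with an interval of -0.43 to 0.18.

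Whether the tumor effect differed between genotypes was tested as (OPT-tm minus tumor-free OPT18) minus (T30 minus T18). Sat1 (-1.23, SE 0.22, adjusted p = 8.27e-05), Azin1 (0.82, SE 0.16, adjusted p = 0.000287) and Smox (-0.89, SE 0.26, adjusted p = 0.00658) passed, 3 of 7 genes against 44.7% of all genes. The value of Smox combines a lower level in OPT-tm than in OPT18 with a higher one in T30 than in T18, neither of which passed by itself. With array medians set equal, Sat1 (-1.09, adjusted p = 0.112) and Smox (-0.80, adjusted p = 0.0831) no longer passed, and 2 of the other 4 Smox probes did not either (-0.49 and -0.57, adjusted p = 0.0932 and 0.0528). For Odc1 the difference was 0.49 (SE 0.22) and did not pass (adjusted p = 0.0707). It passed when the OPT-tm prostate of chip 3 (0.70, adjusted p = 0.0112), the T30 mouse of chip 2 (0.60, adjusted p = 0.0267) or the T18 mouse of chip 2 (0.58, adjusted p = 0.0388) was left out, and Oaz1 passed without the first of these (0.59, adjusted p = 0.0226). The tumors also differed in age and histotype. T30 mice were older than T18 mice, while OPT-tm and OPT18 mice shared an age. Genotype, age and histotype therefore cannot be told apart in this test.

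The prostates with no palpable tumor were compared by genotype and by age. Between tumor-free OPT18 and T18 none of the 7 genes passed, against 0.0464% of all genes (6.74% at an unadjusted p under 0.05). The differences ran from -0.17 (Sat1, 95% CI -0.39 to 0.06) to -0.03 (Odc1, 95% CI -0.26 to 0.19). Between tumor-free OPT18 and OPT15 none of the 10768 genes passed in limma, while 21% had an unadjusted p under 0.05.

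Srm and Smox had the largest differences between those ages. Srm ran from 11.40 to 12.81 with a median of 12.16 in OPT18, against 12.38, 12.97, 12.83, 12.82 and 12.54 in OPT15. OPT15 had the highest mean Srm of the 5 groups (12.71 ± 0.24, SD, n = 5). The difference was -0.56 (SE 0.16, unadjusted p = 0.00223, adjusted p = 0.106), and OPT18 was lower on 4 of 4 chips. The other 2 Srm probes gave -0.54 and -0.32 (adjusted p = 0.114 and 0.209). For Smox, OPT18 ran from 10.50 to 11.45 with a median of 10.96, against 11.21, 11.20, 11.62, 11.72 and 11.16 in OPT15. The difference was -0.44 (SE 0.13, unadjusted p = 0.00244, adjusted p = 0.109), again lower on 4 of 4 chips, and smaller with chip as a block (-0.27, adjusted p = 0.323).

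The early classes were made in the study by clustering these same arrays, so their levels are a description with no test. Over 5 Early-NE and 17 Early-ADC prostates, all 7 genes overlapped between classes, where 2.93% of all genes did not. Smox had the largest difference of means (-0.34), with 10.80 ± 0.24 in Early-NE and 11.14 ± 0.29 in Early-ADC (SD), and 3 of the 5 Early-NE values were below the lowest Early-ADC value. Srm averaged 12.07 ± 0.46 in Early-NE and 12.37 ± 0.34 in Early-ADC, and Sat1 averaged 13.56 ± 0.08 in Early-NE and 13.75 ± 0.20 in Early-ADC. The Early-NE arrays were all of chips 2 and 4 and of OPN-/-TRAMP mice, while Early-ADC held arrays of every chip and the T18 prostates. On chips 2 and 4, Sat1 was 13.42 to 13.63 in OPT18 Early-NE and 13.52 to 13.72 in OPT18 Early-ADC. Odc1 was 0.17 higher in Early-NE on average, with 14.22 ± 0.19 against 14.06 ± 0.19 in Early-ADC. The differences of means were 0.05 for Azin1, 0.03 for Oaz1 and -0.04 for Oaz2. NE marker means ran from 9.98 to 11.62 in the 5 Early-NE prostates, against 8.51 to 10.0004 in the 17 Early-ADC prostates. The classes overlapped in the OPT15 Early-NE mouse, which had the lowest of the 5 values, while the other 4, all of OPT18, lay above every Early-ADC prostate.

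Genes of ornithine and arginine metabolism were read beside the pathway. Whether they changed the supply of ornithine was not tested. Of 6 tested genes of this list, 4 fell in OPT-tm relative to T30 and none rose, with 3 at least 2-fold lower, and the list had a median log2 fold change of -0.98. Of all genes, 21.7% fell, 21.4% rose and 12.5% were at least 2-fold lower in this comparison. Oat, the mitochondrial ornithine aminotransferase, read 13.39, 13.29 and 13.49 in OPT-tm, against 15.00, 15.00, 14.84 and 14.60 in T30. The groups were far apart relative to their spread, and Oat fell by 1.47 (SE 0.16, adjusted p = 0.000157). Arg2, the mitochondrial arginase that releases ornithine from arginine, fell by 1.59 (SE 0.26, adjusted p = 0.00154). Ass1, the argininosuccinate synthase of arginine synthesis, fell by 2.18 (SE 0.45, adjusted p = 0.00493) and was detected in 2 of 3 OPT-tm. Asl, also of arginine synthesis, was the fourth to fall (-0.46), a call lost in 9 of 16 other settings. Arg1, the cytosolic arginase, did not pass (1.05, adjusted p = 0.158).

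Relative to tumor-free OPT18, Arg1 rose by 1.22 in OPT-tm (adjusted p = 0.00145), while Arg2 fell by 2.50 (adjusted p = 6.92e-10), Ass1 by 1.42 (adjusted p = 3.72e-06) and Oat by 1.33 (adjusted p = 1.63e-09). Asl, the next enzyme after Ass1, fell as well, so that 4 of 6 fell and 1 rose, where 32.3% of all genes fell and 32.2% rose. Aldh18a1, which starts ornithine synthesis from glutamate, passed in neither comparison. Oat, Arg2 and Ass1 also passed in the difference between genotypes (-1.44, -1.55 and -2.17, adjusted p = 1.17e-07, 8.68e-05 and 7.82e-05). Age and histotype differ there as well.

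**Figure D4:**
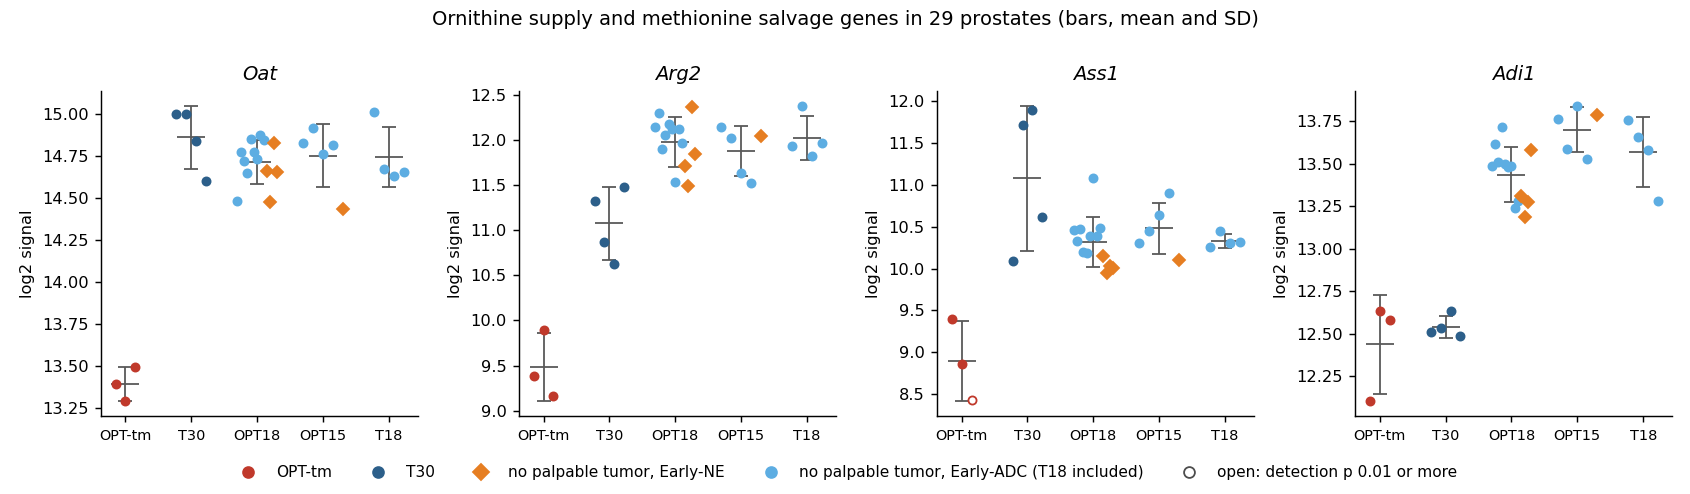
Log2 signal (y axes, each with its own range) of Oat, Arg2, Ass1 and Adi1 in 5 groups of prostates, 1 point per mouse, with the mean and SD as bars. Oat, Arg2 and Ass1 are lowest in the 3 OPT-tm prostates, and Adi1 is low in OPT-tm (12.44 on average) and in T30 (12.54) alike.

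Aminopropyl groups come from methionine, and the salvage pathway returns the by-product methylthioadenosine to it. Of 7 tested genes of this list, 1 (Apip) fell in OPT-tm relative to T30 (-0.49, adjusted p = 0.0287, lost in 6 of 16 other settings), and 5 fell relative to tumor-free OPT18, against 21.7% and 32.3% of all genes. Adi1, an enzyme late in methionine salvage, fell by 0.998 relative to OPT18 (SE 0.12, adjusted p = 1.24e-06), and Enoph1 of the same pathway by 0.66 (adjusted p = 0.00128). Mat1a, which makes S-adenosylmethionine, was at least 1.21-fold lower (adjusted p = 0.000290, not detected in OPT-tm and detected in 9 of 13 OPT18). No probe is named here for Mat2a, also of this list, so its level was not measured. Adi1 was lower in T30 than in T18 too, with 12.51, 12.53, 12.64 and 12.49 in T30 and 13.57 ± 0.21 in T18 (SD, n = 4). That difference of -1.03 passed (SE 0.13, adjusted p = 0.00381). Mat1a also passed as lower in T30 than in T18 (adjusted p = 0.00919), but its probe was detected in only 1 of 4 T30 and in all 4 T18, so its fitted difference of -0.98 is against signals mostly at background.

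Of 6 tested transport genes, 1 fell in OPT-tm relative to T30 and none rose, where 21.7% of all genes fell and 21.4% rose. The gene that fell was Slc47a1, an exporter of organic cations, at least 1.27-fold lower and not detected in OPT-tm (adjusted p = 0.0479). It was detected in 2 of 4 T30, and the call was lost in 8 of 16 other settings (adjusted p of 0.00208 to 0.113 over all 16), among them leaving out any 1 of the 3 OPT-tm mice or the T30 mouse of chip 2 or 3. Against tumor-free OPT18, 2 rose and 2 fell, 4 of 6 where 64.5% of all genes passed. Gpc1, a cell surface proteoglycan linked to polyamine uptake, had 14.73 ± 0.31 in OPT-tm (SD, n = 3) and 12.85 ± 0.32 in OPT18 (SD, n = 13), a rise of 1.88 (adjusted p = 1.02e-07). Slc7a2, a cationic amino acid carrier, rose by 0.47 (adjusted p = 0.00588). Slc3a2, a chain of amino acid transporters, fell by 0.90 (adjusted p = 0.00302, detected in 1 of 3 OPT-tm), and Slc47a1 was at least 1.37-fold lower (adjusted p = 1.76e-07). Gpc1 was 14.08 ± 0.94 in T30 (SD, n = 4, 13.17 to 15.09), overlapping OPT-tm, and 12.82 ± 0.26 in T18 (SD, n = 4). It did not pass between OPT-tm and T30, and no transport gene passed between T30 and T18.

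Of 4 other genes of the pathway tested, Amd2 included, 1 rose in each tumor comparison, where 21.4% and 32.2% of all genes rose. In both it was Sat2, a relative of Sat1, which rose relative to T30 (0.71, adjusted p = 0.0396) and relative to OPT18 (0.34, adjusted p = 0.04005). The first call was lost in 7 of 16 other settings (adjusted p up to 0.128), among them leaving out the OPT-tm mouse of chip 1 or 2 or the T30 mouse of chip 1, 3 or 4. The second was lost in 5 of 13 (adjusted p up to 0.311), among them leaving out the OPT-tm mouse of chip 1 (0.33) or of chip 2 (0.18). Aoc1, which oxidizes putrescine, and the antizyme Oaz3 passed as lower than in OPT18 (adjusted p = 0.0287 and 0.000119), but neither was detected in OPT-tm and no fold is given. Eif5a, the protein that carries the spermidine-derived residue hypusine, did not pass relative to T30 (-0.13, adjusted p = 0.513) and fell by 0.26 relative to OPT18 (adjusted p = 0.0348), a value that was 0.08 with the mean of its probes. Myc and Max are known as regulators of Odc1. The Myc probe was not detected in OPT-tm, and it was detected in 2 of 4 T30 and 8 of 13 OPT18. Myc passed only as lower than in OPT18, and no fold is given. Max passed in neither comparison, and Mycn was not among the genes tested. Of 8 tested genes of a list of Myc, Max and related factors, 1 rose and 1 fell in OPT-tm relative to T30. These were Mxd3 (1.96, adjusted p = 0.000163) and Mlx (-0.56, adjusted p = 0.0204), 2 of 8 where 43.1% of all genes passed. The Mxd3 probe was detected in all 3 OPT-tm but in only 1 of 4 T30 and 2 of 13 OPT18, so the size of its rise is uncertain, and the neqc background correction gave 3.22 against T30 and 3.46 against OPT18. Relative to OPT18, 1 rose (Mxd3, 2.05, adjusted p = 9.09e-08) and 4 fell, 5 of 8 where 64.5% of all genes passed, with the largest falls for Mycl (-1.68, adjusted p = 6.81e-09), Mlx (-0.49) and Mxd4 (-0.41).

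**Figure D5:**
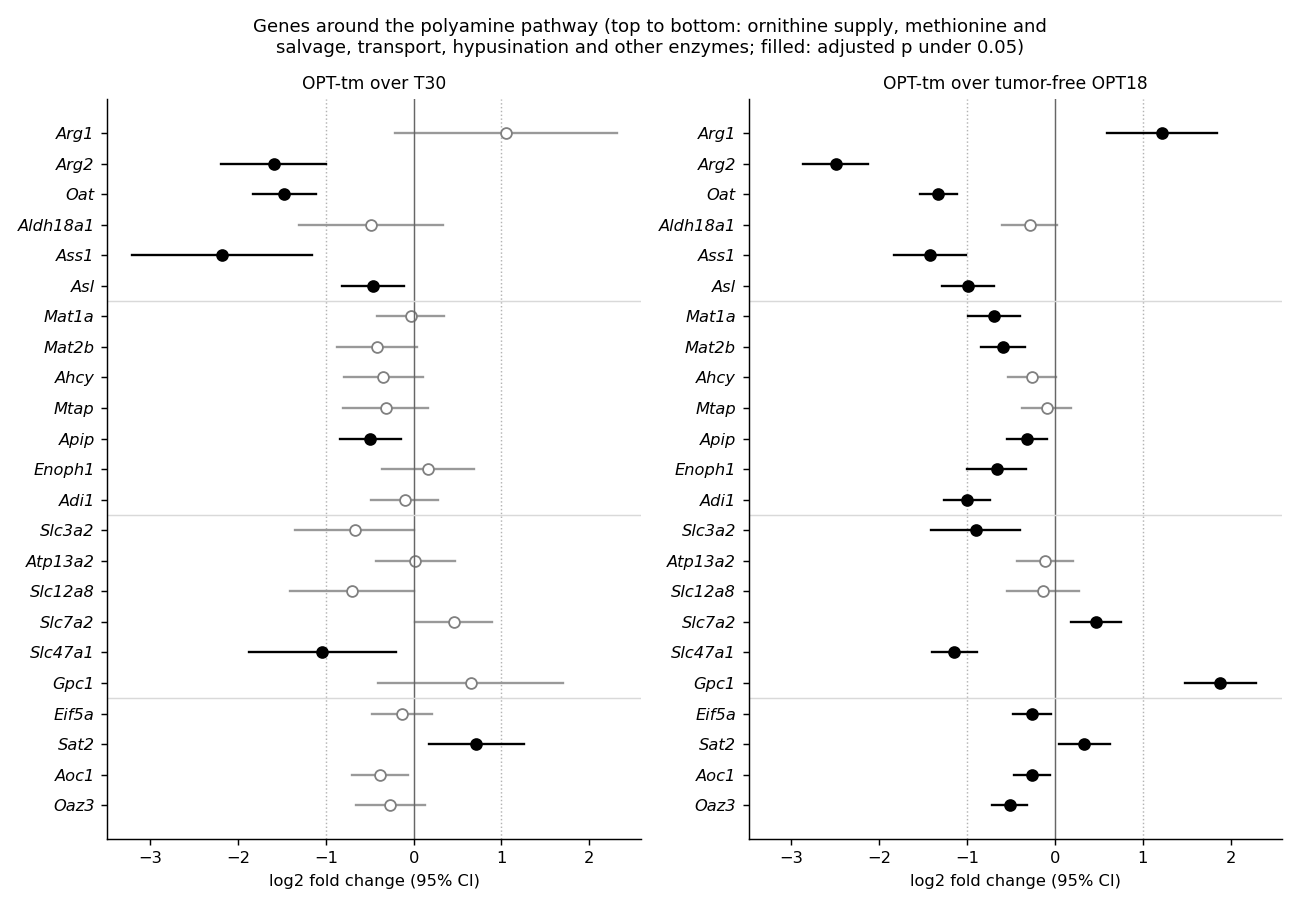
Log2 fold changes with 95% confidence intervals (x axes) of 23 genes around the pathway, ordered by role. Filled points passed the test, and those of Slc47a1, Mat1a, Aoc1 and Oaz3 are fitted values of genes not detected in OPT-tm, so they give no bound. In the top block, Arg2, Oat, Ass1 and Asl lie below 0 in both panels.

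Over the 29 prostates, the genes most like each polyamine gene were found by Pearson correlation of log2 signals, as a description of arrays that share groups and chips. For Sat1 they were Clec2d (r = 0.95), Frmd6 (0.94) and Bdh2 (0.94). For Smox they were Ece1 (0.90), Ccser2 (0.85) and Chst15 (0.84), and for Oaz2 they were Bin1 (0.83), Hoxd3 (0.78) and Rsph1 (0.77). Oaz1 was most like Ndufa12 (0.81), Cox5a (0.75) and Crygs (0.74). Odc1 was most like Acvr1 (0.79), Syngr1 (0.77) and Tpgs2 (0.76), and Srm most like Clec16a (0.79), Pdrg1 (0.78) and Rnf25 (0.78). Among the polyamine genes themselves, the pairs after Azin1 and Sat1 were Azin1 and Smox (r = -0.45), Azin1 and Odc1 (0.44) and Srm and Smox (0.44).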

How the data were processed

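RNA of 29 mouse prostates was hybridized to Illumina MouseRef-8 v2.0 BeadChips, spread over 4 chips. Per probe, the deposited values are the signal intensity, not normalized, and its detection p-value, made by the authors in BeadStudio. A table of log2 values that the authors had normalized by robust spline in lumi (its version is not given in the sources used here) served as an alternative. Here signals were put on the log2 scale with no background correction and quantile normalized (limma 3.58.1, R 4.3.3). Of 25697 probes, 23978 had 1 gene symbol and 1719 none. A probe was kept if its detection p-value was under 0.01 on 1 array or more (15825 probes). Each gene was read from its most often detected probe, giving 10768 genes. limma was fitted to the groups of each comparison. Its threshold was an adjusted p under 0.05, and the study's added limit was 2-fold. The fit was tested on simulated data. A lower bound ("at least") sets the brighter group's mean against the lowest detected signal of the arrays in which the probe was never detected. P-values set a difference between groups against the spread between mice within them. That spread includes differences between chips, since the main fit had no chip term. The number of mice limits the precision. The 10 genes and the related lists were chosen with earlier results of these data known. Of the related lists, up to 3 rises and 3 falls of largest fold per tumor comparison were named by rule. Adi1, Mat1a, Arg1, Aldh18a1, Asl, Eif5a, Gpc1, Myc and Max were also named elsewhere after their values were seen. For likeness, the 3 genes of highest correlation were named for each gene detected on all arrays. Promoters came from RefSeq (GRCm38.p6). The alternatives were other normalizations, filters, probes, chip as a block, other fits and leaving out mice.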

Additional observations from a re-analysis of the deposited data

Results flagged for a closer look

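The difference of OPT-tm from tumor-free OPT18 was unlike that of T30 from T18, by the test of the difference itself, for 3 genes. They were Sat1 (-1.23), Azin1 (0.82) and Smox (-0.89), in log2 units. Genotype, age and histotype cannot be told apart in that test. With array medians set equal, Sat1 (adjusted p = 0.112) and Smox (adjusted p = 0.0831) no longer passed in limma, and not all Smox probes passed. Single prostates stood apart from their own group for 3 of the 40 gene and group pairs checked, where chance gives about 1 in 20. Oaz2 was 10.88 in the OPT18 Early-ADC mouse of chip 4, Azin1 was 8.74 in the T18 mouse of chip 3, where its probe was not detected, and Amd2 was 12.27 in the OPT18 Early-NE mouse of chip 4. No cause was tested for any of these.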

How the results depend on the processing

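Of 708 values of polyamine genes under other settings, 684 kept their direction and side of the threshold or passed in neither fit, 14 no longer passed, 10 newly passed and 0 reversed, while 48 values that never passed changed sign. With array medians set equal, the genes that passed were 1 in place of 3 for OPT-tm against T30 (Azin1), 2 in place of 4 against tumor-free OPT18 and 1 in place of 3 for the difference between genotypes, and those also at least 2-fold different were 0 in place of 1 in the first and the last. The count of genes at least 2-fold different, 1 in each of these comparisons, was 2 (authors' values), 3 (neqc) and 2 (chip as a block) for OPT-tm against T30, 2 (neqc) against OPT18, and 2 (neqc) and 2 (chip as a block) for the difference between genotypes. For T30 against T18, 1 gene passed with all 29 arrays in 1 fit. Leaving out 1 OPT-tm or T30 mouse at a time gave 3 to 4 genes that passed against T30, leaving out 1 OPT-tm mouse gave 2 to 4 against OPT18, and leaving out 1 OPT-tm, T30 or T18 mouse gave 3 to 5 for the difference (no OPT18 mouse was left out in these), and 1 to 2, 1 to 1 and 0 to 2 of these genes were also at least 2-fold different. Among 995 values of related genes, 58 no longer passed, 22 newly passed and 1 reversed (Eif5a against OPT18, 0.0831 with the mean of its probes). Against T30, Asl, Slc47a1, Sat2, Apip and Mlx no longer passed in 9, 8, 7, 6 and 4 of 16 settings. Against OPT18, Sat2 and Mxd4 no longer passed in 5 of 13 settings each, Eif5a in 4, Aoc1 in 3, Apip and Myc in 2 each, and Enoph1, Mat2b and Slc7a2 in 1 each. The labels share no replicate number between groups, so samples were matched only by chip, as a block. For the means of the early classes, 9 settings, chosen after seeing the data, moved no gene by more than 1 SD. The causes were not tested.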

Other observations

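Ass1, the argininosuccinate synthase of arginine synthesis, did not overlap between the early classes. Its log2 signals were 9.95 to 10.14 in the 5 Early-NE prostates and 10.19 to 11.08 in the 17 Early-ADC prostates, where 2.93% of all genes did not overlap. The 3 OPT-tm prostates were lower still, at 9.40, 8.86 and 8.44, the last not detected. Gpc1 averaged 13.16 ± 0.22 in Early-NE and 12.74 ± 0.21 in Early-ADC (SD), with overlap. Its mean in T30 was 14.08 ± 0.94 (SD, n = 4). These genes were picked after their values were seen, and the classes were made from the same arrays, so no test is given.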
